A study of Gallus gallus with 6 samples.

Results

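The names described here are the predicted miRNA targets that stood in the day 8 and day 14 lists of chick embryo hearts and in the list of no other day. They were chosen by the lists themselves, from the column of target names, after setting the names in upper case and removing the ending _CHICK. There were 172 such names among the 1220 distinct names of the 6 lists, or 14.1%. They made up 24.9% of the 691 names of day 8 and 20.5% of the 840 names of day 14. Small RNA had been sequenced from hearts of Gallus gallus embryos after 4, 6, 8, 10, 12 and 14 days of incubation, with 1 library of total heart RNA for each stage. Day 8 was stage HH34 and day 14 was HH40, while days 4, 6, 10 and 12 were HH24, HH29, HH36 and HH38. Eggs came from a hatchery, the labels name no strain or treatment, and the RNA of a stage was a pool that was not sorted by cell type. Without replicates no test between stages could be made, and the lists were set side by side.

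A miRNA is a short RNA that guides an Argonaute protein to messenger RNAs, most often through its seed, the bases 2 to 8 counted from its 5′ end. An mRNA with a stretch complementary to the seed in its 3′ untranslated region can then be degraded or translated less. Target prediction searches for such stretches and scores the duplex, without measuring the mRNA or its protein. miR-16 and miR-15 share 1 seed and are transcribed from paired genes. In mammals this family is known for restraining the cell cycle and BCL2, and for the withdrawal of heart muscle cells from division around birth.

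miR-16 enters here because it was the only miRNA searched for targets on days 8 and 14 and on no other day. Its sequence is shown with those of its relatives, as deposited, with T in place of U. The seed is in capitals for miR-16 and miR-15, and for miR-103 the capitals mark bases 1 to 7.
miR-16, 22 nt, listed as known: tAGCAGCAcgtaaatattggtg
miR-16, 23 nt, listed as absent from miRBase: tAGCAGCAcgtaaatattggtgt
miR-15 of chromosome 1, 22 nt: tAGCAGCAcataatggtttgtg
miR-15 of chromosome 4, 22 nt: tAGCAGCAcatcatggtttgta
miR-15 of chromosome 9, 21 nt: tAGCAGCAcatcatggtttgc
miR-103, 23 nt: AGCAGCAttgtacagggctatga
The seed AGCAGCA was thus the same in miR-16 and in the 3 forms of miR-15. miR-103 carried the same 7 letters 1 base nearer to its 5′ end, so its own bases 2 to 8 were different. In the deposited positions (Gallus gallus v.2.1) the 22 nt miR-16 lay on the minus strand at chr1:173700400-173700421 and at chr9:23742847-23742868. A miR-15 lay beside it on the same strand at both loci, with 119 bases between the mature sequences on chromosome 1 and 149 on chromosome 9.

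Each target list came from 10 miRNAs, and 24 different miRNAs were used over the 6 lists. Of the 10 on day 8, 9 were also used on a day other than 8 and 14. These were let-7a and let-7j (all 6 lists), miR-103 (days 4, 8, 10 and 14), miR-181a-5p (days 4, 8 and 14), miR-135a (days 6, 8, 10 and 12), miR-7 (days 6, 8 and 12), and miR-196, miR-204 and miR-211 (days 4 and 8). The day 14 list also used miR-101, miR-133a, miR-27b, miR-181b and miR-122, and of these only miR-122 was used in no other list. A name predicted for miR-16 and also for a miRNA of days 4, 6, 10 or 12 would stand in more lists, and was left out by the rule. miR-16 filled 233 of the 691 rows of day 8 (33.7%) and 229 of the 840 rows of day 14 (27.3%), more than any other miRNA on either day. miR-103 came next, with 116 and 115 rows.

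**Figure D1:**
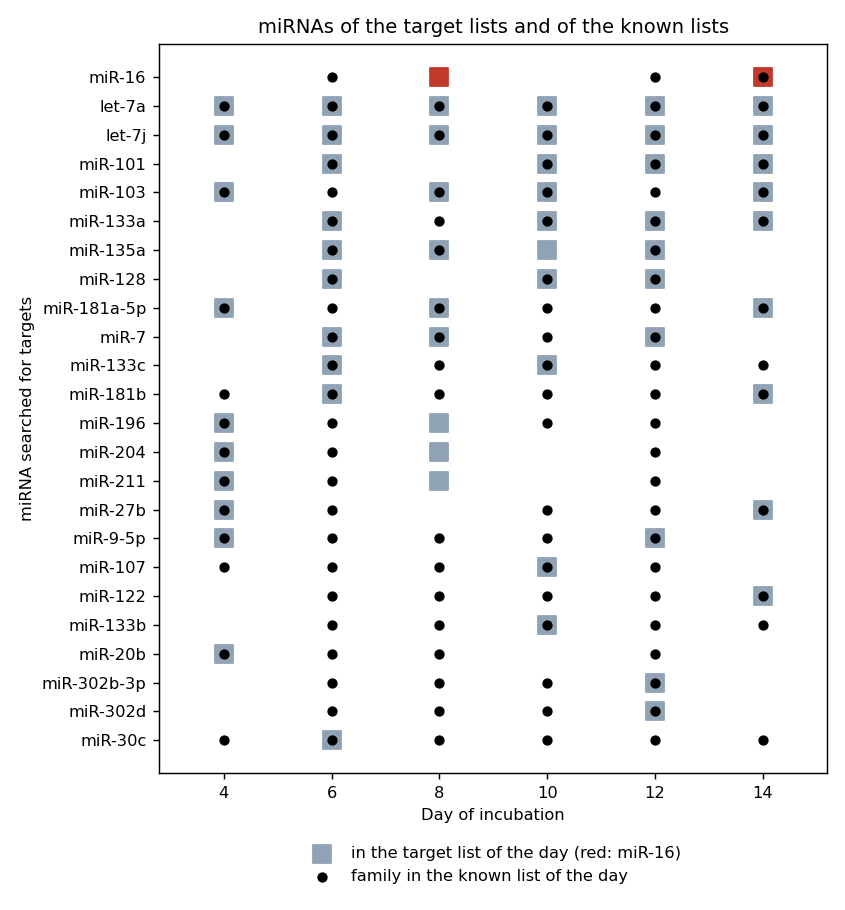
The plot has a row for each of the 24 miRNAs searched for targets and a column for each day of incubation, with a square where the miRNA was in the target list and a dot where its family was in the list of known miRNAs of that library. miR-16, in red, has squares on days 8 and 14 and dots on days 6, 12 and 14.

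The presence of a name over the 6 lists took 38 different patterns. The pattern of days 8 and 14 only was the commonest, with 172 names. It was followed by days 4, 8, 10 and 14 with 130 names, which is the pattern of miR-103, and by days 6, 10, 12 and 14 with 127 names, which is the pattern of miR-101 and miR-133a. The pattern of all 6 days, that of let-7a and let-7j, held 102 names. In all, 1041 of the 1220 names (85.3%) had the same pattern of days as at least 1 searched miRNA. A name could enter a list only through a miRNA searched that day, and all 1220 patterns were unions of miRNA patterns. This share thus follows in large part from which miRNAs were searched. Among the 15 pairs of libraries, days 8 and 14 had the most names of their own. Days 4 and 8 followed with 64, and 8 pairs had none. Days 8 and 14 shared 568 names in all, which was 82.2% of the day 8 names and 67.6% of the day 14 names, and the 172 were 30.3% of these. No name was found on day 8 alone, and 35 were found on day 14 alone.

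**Figure D2:**
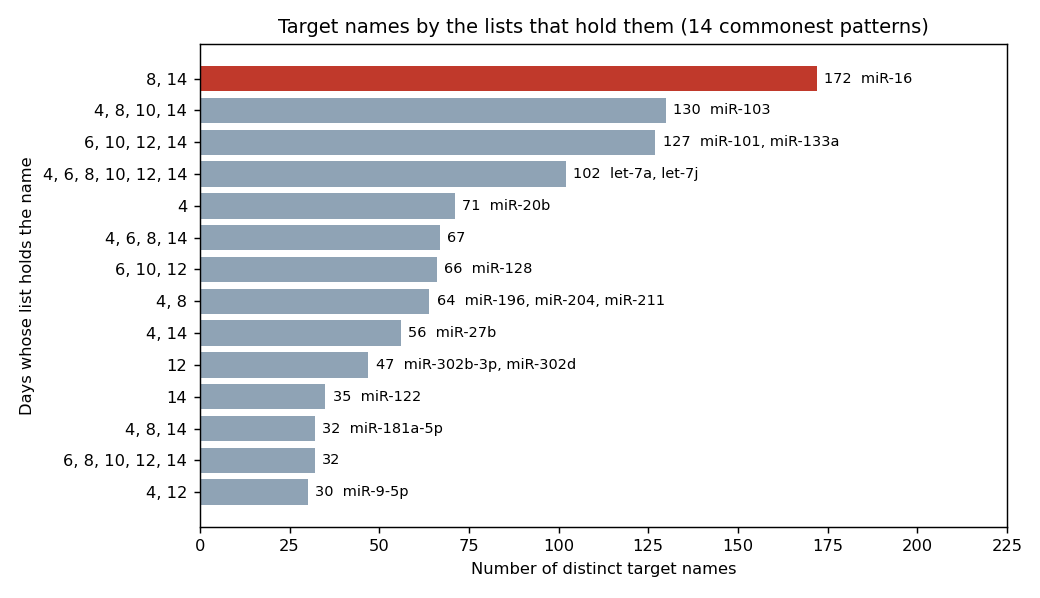
Bars give the number of distinct target names for the 14 commonest patterns of days, with the miRNAs whose own target lists have exactly that pattern written beside the bar. The pattern of days 8 and 14, in red, holds 172 names and is that of miR-16.

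Just outside the rule were 44 names on days 8 and 14 and on 1 other day. Day 4 was the other day for 32 of them, day 12 for 6, and days 6 and 10 for 3 each. They included LMOD3, a leiomodin of muscle thin filaments, and PSMC3IP, the partner of MND1 in meiotic recombination, both with day 4 as the other day. CD8A, a coreceptor of T cells, was on day 12 as well.

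The level of miR-16 itself did not follow the days of these lists. It was listed as known on day 6 with 5361 reads (580 RPM) and on day 12 with 18877 reads (503 RPM). On day 14 it was listed as known with 40 reads (175 RPM). RPM is the authors' read count times a constant of the library. On days 4, 8, 10 and 14 this constant rested on far fewer reads than the clean reads of the paper. On day 8 miR-16 was found only as the 23 nt sequence with a further T at its 3′ end. This sequence was listed as absent from miRBase, with 5635 reads (1008 RPM). miR-16 was listed in neither form on days 4 and 10. The target lists of days 6 and 12 therefore did not use miR-16 although the miRNA was found there. Most listed families went unused, as the known lists of these days held 90 and 97 families against 10 searched miRNAs. The day 8 target list used miR-16 although the known list did not hold it. The known list of the day likewise lacked miR-196, miR-204 and miR-211 on day 8 and miR-135a on day 10, though the target list used them. For these miRNAs the sequences absent from miRBase were not searched. Of the reads of known miRNAs, miR-16 was 0.163% on day 6 (95% Wilson interval 0.159 to 0.167%), 0.246% on day 12 (0.243 to 0.25%) and 0.251% on day 14 (0.184 to 0.341%), and these intervals cover counting error only. By share, the interval of day 14 included the value of day 12, and by RPM day 14 was the lowest of these days.

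The length of the listed sequences differed between libraries. On day 8 the known list held 45 sequences of 23 nt among 51 and only 6 of 22 nt. On day 10 it held 71 of 21 nt among 76 and 3 of 22 nt, while on days 4, 6, 12 and 14 the 22 nt sequences numbered 19 of 34, 62 of 112, 68 of 123 and 38 of 41. The part of these length differences in the absence of the 22 nt miR-16 was not tested. The lowest number of reads listed was 6, or 2 on day 10, so a sequence with fewer reads could not be seen. miR-15 was listed as known on days 6 (251 RPM), 8 (3.94 RPM), 10 (659 RPM), 12 (231 RPM) and 14 (48.2 RPM). On day 8 a 23 nt form of the chromosome 1 miR-15 was also listed as absent from miRBase, with 40 reads (7.16 RPM). Counting every listed sequence with the seed, none was listed on day 4, and the levels of the later libraries in order of age were 831, 1019, 659, 735 and 223 RPM.

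**Figure D3:**
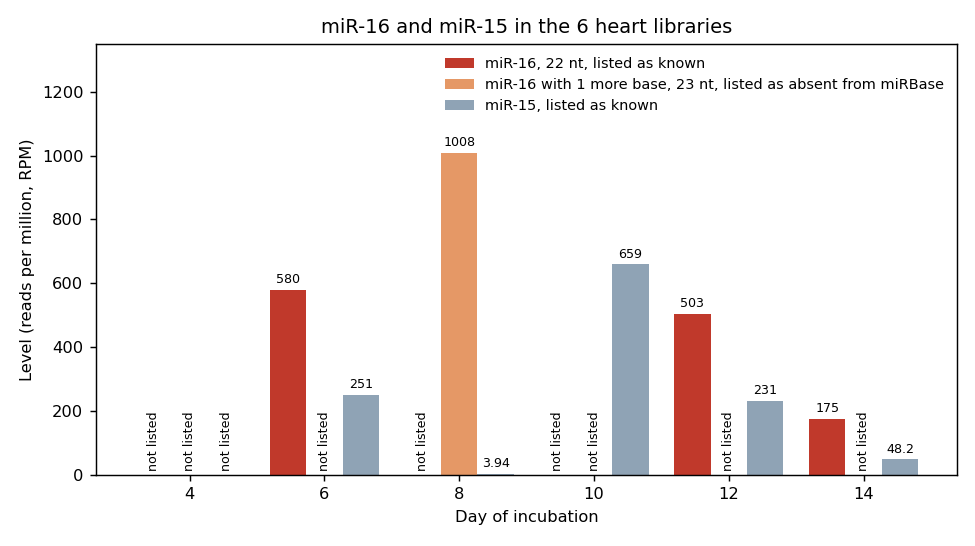
Bars show the RPM of the 22 nt miR-16, of its 23 nt form absent from miRBase and of the miR-15 listed as known. They are given for the library of each day of incubation, on a linear axis from 0. The 22 nt form is listed on days 6, 12 and 14, and the 23 nt form, at 1008 RPM, on day 8 only.

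The read totals behind the RPM values ran from 228290 on day 14 to 37495805 on day 12, with 5588946 on day 8. The paper gives more clean reads than this for each library. The gap was small on days 6 and 12 and large on the other days. The order of days by RPM may therefore not hold per clean read. A single read was worth 4.38 RPM on day 14 and 0.179 on day 8, so the low counts of day 14 carry the larger error. Of the miRNAs of muscle, miR-133 was listed on every day but day 4, with 102 reads (18.3 RPM) on day 8 and 222 reads (972 RPM) on day 14. miR-499, which lies in a cardiac myosin gene, was listed on day 10 only, with 712093 reads (207723 RPM). miR-206 was listed on days 6 (164 reads) and 12 (341 reads), and miR-1 and miR-208 on no day. These muscle counts are of the known lists only. The sequences absent from miRBase were not searched for these miRNAs, so a form of another length could be missed, as for miR-16 on day 8.

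The names could be used, but not the miRNA, score and energy beside them. Of the 172 names, 21 stood beside the same miRNA on both days (12.2%), 8 beside the same score and 0 beside the same energy. Only 5 miRNAs were in both lists, so a name beside any other miRNA could not match. Beside miR-16 stood 57 on day 8 (33.1%) and 49 on day 14 (28.5%), with 15 on both. The 568 names shared by the 2 days gave close shares, with 13.0% beside the same miRNA, 34.2% beside miR-16 on day 8 and 27.5% on day 14, so the mismatch was one of the lists as a whole. The rows of miR-16 nonetheless shared 173 pairs of score and energy between the 2 days, or 74.2% of its day 8 rows and 75.5% of its day 14 rows. This was not particular to miR-16, as let-7a, miR-103, miR-181a-5p and let-7j shared 60.7 to 82.1% of their day 8 rows. TBX5, for example, stood beside miR-103 on day 8 and miR-16 on day 14, and ROCK1 beside miR-181a-5p and miR-16. Both lists used these miRNAs. Hence no name is assigned to miR-16 here, and no score or energy is given for a gene.

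Of the 172 names, 136 were gene symbols or protein entry names and 36 (20.9%) were UniProt accessions, against 286 accessions (23.4%) among all 1220 names. RefSeq (assembly GRCg7b) held 124 of the names (72.1%), 118 as a symbol, 5 as a synonym and 1 by gene ID, compared with 67.0% of all names. As synonyms, NKAP, TRAM1 and ZBTB8B matched the RefSeq genes NKAPL, TRAM1L1 and RP1-27O5.3. Their roles below are those of the deposited names. A role could be given for 111 names, which fell into 11 groups. The largest were membrane traffic and protein sorting with 16 names, and kinases, phosphatases and GTPase regulators with 15. None of the groups made up over 9.30% of the names. The other listed names were not grouped, so no group size is shown to be particular to this set.

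**Figure D4:**
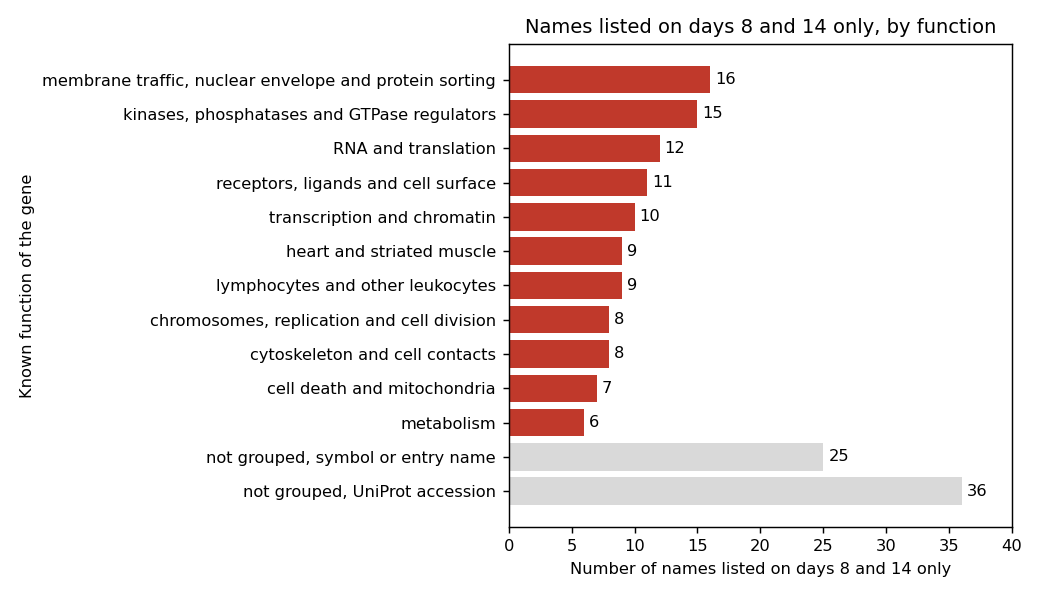
Bars give the number of names listed on days 8 and 14 only by the known function of the gene, with names given no role in grey. The largest group of known function, membrane traffic, holds 16 of the 172 names, and 36 are UniProt accessions.

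The heart and striated muscle group had 9 names. TBX5 encodes a T-box transcription factor needed for the heart and forelimb, whose loss on a single allele causes Holt-Oram syndrome in humans. TNNI1 encodes slow skeletal troponin I, the inhibitory subunit of troponin that the embryonic heart uses in mammals, and LMOD2 a leiomodin that lengthens cardiac thin filaments. JPH1 encodes a junctophilin, which ties the sarcoplasmic reticulum to the surface membrane, and TMEM38A a cation channel of the same reticulum. FABP3 is the fatty acid binding protein of heart muscle, and PHKA1 the muscle subunit of phosphorylase kinase, which starts glycogen breakdown. RNF207 encodes a RING finger protein whose locus is linked to the QT interval in humans. PPAPDC3 encodes a nuclear envelope protein that restrains muscle differentiation in mouse cells. That the 9 were named on days 8 and 14 and on no other day follows from the rule that chose them.

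In the signalling group, BRAF is the kinase that couples RAS to MEK, and ROCK1 a kinase that raises actomyosin contraction. TSC2 is tuberin, which holds mTORC1 in check through RHEB. STK25 is a kinase of the Ste20 family, and PXK a kinase-like protein with a phosphoinositide-binding domain. Regulators of small GTPases were ARHGAP22 (a GAP for Rac), GIT2 (a GAP for ARF proteins at focal adhesions), PSD3 (an exchange factor for ARF6), ARFRP1 (an ARF-like GTPase of the Golgi) and RHPN1. RGS14 and RIC8A act on heterotrimeric G proteins, the first as a GAP and the second as a chaperone and exchange factor of the alpha subunits. ICMT methylates prenylated proteins such as RAS, IGBP1 binds the catalytic subunit of phosphatase PP2A, and CDC14B is a phosphatase of the cell cycle.

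Genes known from lymphocytes and other leukocytes gave 9 names. CD3D is a chain of the T cell receptor complex, ZAP70 the kinase that the complex recruits, and PTPN6 the phosphatase SHP-1, which damps receptor signals. VPREB3 is a protein of pre-B cells, CARD9 an adaptor of innate receptors that acts with BCL10, and PRAM1 an adaptor of myeloid cells. LAPTM5 is a lysosomal protein of blood cells, SH2D3C an adaptor of lymphocyte adhesion, and CXORF9, which RefSeq lists as SASH3, an adaptor of lymphocytes. The libraries were of whole heart, and the presence of such a name says nothing of whether the gene was expressed there, since only small RNA had been sequenced.

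Among receptors, ligands and surface proteins, CHRDL2 is a secreted antagonist of BMPs and BOC a coreceptor of Hedgehog ligands. EDARADD is the adaptor of the ectodysplasin receptor, AGTRAP a protein that binds the angiotensin II receptor, and GPR37 an orphan receptor. LOC428834 is PRLHR2 in RefSeq, a receptor of the prolactin releasing hormone family. APLP2 is a relative of the amyloid precursor protein, MFI2 (MELTF in RefSeq) an iron-binding melanotransferrin, MAL a proteolipid of membrane rafts, SH2D4A an SH2 adaptor and ABCA7 a lipid transporter.

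Genes of cell death and mitochondria gave 7 names. BOK is a member of the BCL2 family that promotes death, BCLAF1 a nuclear protein that binds BCL2 relatives, and AIFM2 an oxidoreductase that protects lipids from peroxidation. OMA1 is the protease that cleaves OPA1 in stressed mitochondria, NDUFS7 a subunit of complex I, CCDC56 an assembly factor of cytochrome c oxidase, and ABHD10 a mitochondrial thioesterase.

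Chromosomes and division gave 8 names. SMC4 is a core subunit of condensin, POLD3 a subunit of DNA polymerase delta, and MND1 a factor of meiotic recombination. SFI1 binds centrin at centrosomes, TUBGCP4 belongs to the gamma-tubulin ring complex, EML1 binds microtubules, KLHL21 is a ubiquitin ligase adaptor for Aurora B, and SYCP2L is a protein of the synaptonemal complex in oocytes. SMC4 is also the host of MIR16-2 and MIR15B in RefSeq, so a gene of miR-16 lies inside a gene of this set. RefSeq placed 4 other miRNA genes inside members, MIR7446 in ABHD10, MIR6568 in BCLAF1, MIR1708 in FCHSD2 and MIR6693 in TMEM38A. Host genes were not counted among the other listed names, so hosting is not shown to be particular to this set.

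In transcription and chromatin, KDM2B is a histone demethylase that brings Polycomb to CpG islands, L3MBTL2 a Polycomb protein and BAZ2B a bromodomain protein. MAFG is a small Maf partner of NRF2, TCFL5 a basic helix-loop-helix factor, NKAP a corepressor of Notch targets, and TSC22D2, SERTAD2, ZBTB8B and ZFP92 are further regulators or zinc finger proteins. The RNA group had 12 names. TNRC6A is the GW182 protein that Argonaute recruits for silencing, MAEL acts in the piRNA pathway of germ cells, and PABPC1L is a poly(A)-binding protein of oocytes. RPL22 and RPS29 are ribosomal proteins, EIF2A an initiation factor, MAK16 a factor of ribosome assembly, and ZNF598 and ANKZF1 act on stalled ribosomes. ESRP2 is a splicing factor of epithelia, RAVER2 an RNA-binding partner of PTB, and SCARNA4 a guide RNA of Cajal bodies rather than an mRNA.

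Membrane traffic held EPS15, CLINT1 and FCHSD2 of clathrin-coated pits and vesicles, AP4B1 of the AP-4 coat, and CHMP7, UBAP1 and UBAP1L of the ESCRT machinery. MYO5A is a myosin that carries vesicles, KIAA1033 a subunit of the WASH complex of endosomes, and RIMBP2 a protein of synaptic release sites. TRAM1 helps proteins into the endoplasmic reticulum, ATP13A1 is an ATPase of the same membrane, CTNS exports cystine from lysosomes, IPO13 is a nuclear transport receptor, LEMD2 a protein of the inner nuclear membrane, and WDR48 a partner of deubiquitinases. In the cytoskeleton, CSRP1 is a LIM protein of smooth muscle, COTL1 binds actin filaments, POF1B binds actin in epithelia, DPYSL4 is a collapsin response protein, and GAS8 belongs to motile cilia. CLDN10 is a claudin of tight junctions, MAGI1 a scaffold of cell junctions and LGALS8 a galectin. Metabolism held ASNS (asparagine synthetase), ACSS3 (a mitochondrial acyl-CoA synthetase), ACOT11 (an acyl-CoA thioesterase), B4GALT2 (a galactosyltransferase), RLBP1 (the retinal binding protein of the eye) and SLC43A3 (a nucleobase transporter).

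No role is given for 25 symbols and entry names. They were KLHL7, KLHL28, PARP6, PXDNL, PTER, PYROXD2, OXNAD1, NAT9, MOSPD1, TTC13, TP53TG5, FAM118B, FAM40B, C1ORF172, C2ORF42, C6ORF203, C10ORF76, C17ORF75, LOC396098, LOC419112 and 5 UniProt entry names. With the 36 accessions, 61 names stay without a described function. Of the entry names, MLRM is counted in the sarcomere list below, where it was placed by its name alone.

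Relatives of these genes stood in other patterns of days. The counts below come from 9 gene lists with 200 distinct genes, of which 51 were named in any target list and 33 on days 8 and 14 only. Several of the lists were built around the names themselves, so the 33 cannot be read against the 14.1% of all names. Genes were matched by exact name, and 286 of all names (23.4%) were UniProt accessions. A gene listed under an accession or another name would therefore be missed. Matched in this way, TBX5 and TBX2 alone of 24 cardiac transcription factors were named, TBX2 on every day but day 8. Of 34 genes of the sarcomere and thin filament, 8 were named and 4 were on days 8 and 14 only. These were TNNI1, LMOD2, CSRP1 and the UniProt entry name MLRM. CSRP1, given above as a protein of smooth muscle, and MLRM, placed by its name alone, may lie outside the name of the list. MYL3 was on days 4, 6, 8 and 14, MYL4 on days 4, 8, 10 and 14, LMOD3 on days 4, 8 and 14, and MYL2 on day 14 alone. Of 22 genes of calcium handling, JPH1 and TMEM38A were on days 8 and 14 only, and JPH3 was on days 4, 8, 10 and 14.

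**Figure D5:**
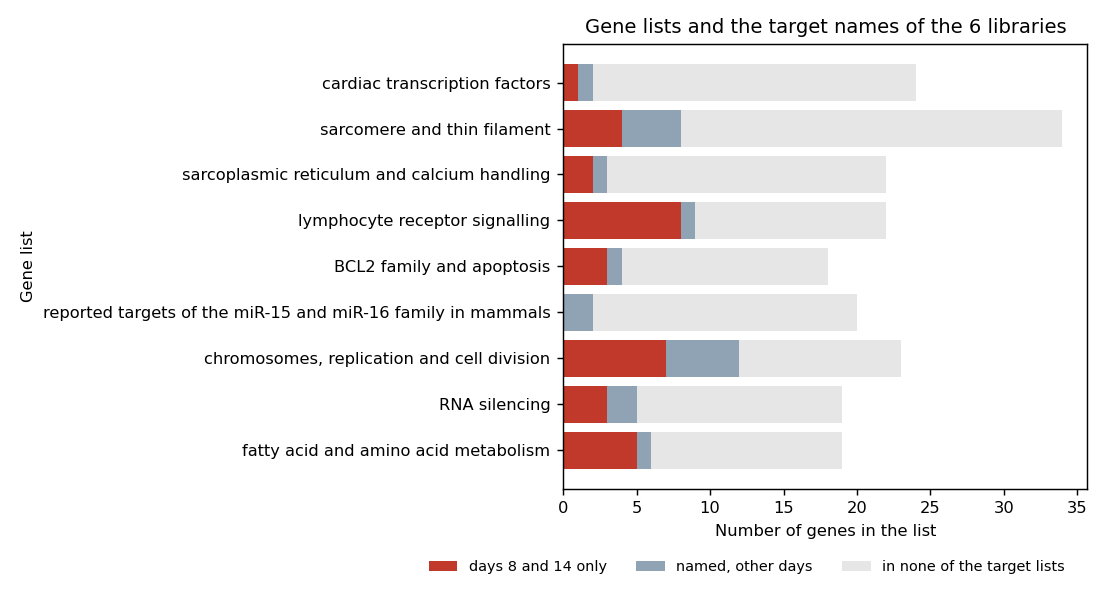
Stacked bars give the number of genes in each of 9 lists, matched by exact name. They are split into genes named on days 8 and 14 only, genes named on other days and genes whose symbol is in none of the target lists. The list of reported miR-15 and miR-16 targets has 20 genes, of which 2 are named and 0 are on days 8 and 14 only.

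The lists of this paragraph and the next hold many names of the set because they were partly built around them. Their counts follow in part from that choice and show no trait of the set. In the lymphocyte list 9 of 22 genes were named and 8 of them were on days 8 and 14 only. The ninth was BLNK, a B cell adaptor, on days 4, 8, 10 and 14. Of the 18 genes of apoptosis, BOK, BCLAF1 and AIFM2 were on days 8 and 14 only and MCL1 on days 6, 10, 12 and 14. Of 23 genes of chromosomes and division, 12 were named and 7 were on days 8 and 14 only. SMC3, of cohesin, was on days 4 and 14, PLK1 on days 6, 10, 12 and 14, and PLK4 and STAG2 on days 4, 8, 10 and 14.

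Of 19 genes of RNA silencing, TNRC6A, PABPC1L and MAEL were on days 8 and 14 only, EIF2C3 (an Argonaute) was on days 4, 6, 8 and 14, and DGCR8, which acts in the first cut of miRNA precursors, was on all 6 days. Of 19 genes of fatty acid and amino acid metabolism, 6 were named and 5 were on days 8 and 14 only, FABP3, ACSS3, ACOT11, ASNS and PHKA1. PHKA1 acts on glycogen, outside the name of the list. The sixth, FABP1, was on days 4, 6, 8 and 14.

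The last list holds 20 genes reported as targets of miR-15 and miR-16 in mammals, among them BCL2, CCND1, CCNE1, WEE1 and CHEK1. Of these 2 were named in any list and 0 on days 8 and 14 only, counts near those of the cardiac transcription factors (2 and 1 of 24). CDK6 was on every day but day 8, and FGFR1 was on days 6, 10, 12 and 14. With so few named, nothing particular to these genes can be read from the counts, and a gene listed under another name would be missed. No 3′ untranslated sequence was at hand here, so whether these genes or the 172 carry a match to the seed was not tested.

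Some of the named genes are neighbours. Of the 124 names placed in RefSeq, 11 lay next to another of the set in the order of protein-coding genes (8.87%), compared with 134 of the 818 placed names of all lists (16.4%), a larger set in which a neighbour is more often found. The neighbours were ICMT, RNF207 and RPL22 in a row, POLD3 with CHRDL2, LGALS8 with EDARADD, STK25 with BOK, and ZFP92 with LOC396098. CSRP1 and TNNI1, MAEL and ZFP92, and EIF2A and TSC22D2 had 1 gene between them.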

How the data were processed

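Per the paper's methods, the authors trimmed and filtered the reads, collapsed identical ones, mapped them with BLAT to Gallus gallus v.2.1 and searched miRBase. TopHat and Cufflinks are in the submitters' processing notes, without a version. The authors deposited the count of reads for each listed sequence and RPM values, which were the count times 1 constant per library (within 0.1% in every library for names that stood once in both lists). They also deposited target lists, made with miRanda per the file's tool column, with a score and a duplex energy for each name. The paper's methods give a perfect seed match, a minimum score and an energy limit for tools such as TargetScan, with PicTar as a further tool. They do not name miRanda, which is named in its Results, so whether these limits apply to the deposited lists is not stated. The sources used here do not say how the 10 miRNAs of a list were picked.

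From these files names were normalised and counted over the 6 lists (Python 3.11.15, matplotlib 3.10.9). Rows without a name (1, 16, 1 and 11 on days 4, 6, 10 and 12) and lines without a sequence were not used, and 2 names that are spreadsheet dates were counted but are not members. RPM was recomputed as reads times the constant, with each sequence added once. Shares carry 95% Wilson intervals (statsmodels 0.14.6). The counting of names was tested on simulated data. RefSeq GRCg7b served for names and gene order only. No length or base content check was made over the names.

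The names, gene lists, groups of function and alternatives were chosen with earlier results of these data known. Genes were named where they belonged to a gene list or had a well known role, and UniProt entries were only counted. The result of 1 gene list is not reported here. The names just outside the rule (LMOD3, PSMC3IP, CD8A) and the muscle miRNAs were picked after their values were seen.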

Additional observations from a re-analysis of the deposited data

How the results depend on the processing

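The number of names on days 8 and 14 only stayed within 1.5 times of 172 under all 8 alternatives, from 136 without UniProt accessions to 204 where absence on day 4 was not required. Names exactly as deposited, joined RefSeq synonyms, or only rows with a miRNA, a score and an energy gave 172, and dropping the absence condition on day 6, 10 or 12 gave 175, 175 and 178. All of these apply the rule again to the same lists, so they are no independent check of the set. The day on which miR-16 was highest depended on what was counted. It was day 6 by RPM of the known sequence, day 14 by share of known reads, day 8 when the 23 nt sequence absent from miRBase was added, and day 8 for all sequences with the seed. The day 14 share rests on 40 reads, and its interval includes the share of day 12. RPM was not scaled to the same part of each library, so the days found by RPM are uncertain. A seed match of bases 2 to 7 in place of 2 to 8 was not run, as no untranslated sequence was used here. No paired analysis was possible because each stage had 1 library. With 1 pool per stage, differences between stages and between libraries cannot be told apart.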
